A study of Chlorocebus sabaeus with 45 samples.

Results

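The 9 receptors described here guide white blood cells between blood, lymphoid organs and tissue. They are the chemokine receptors CCR7, CCR2, CCR6, CXCR3, CXCR4, CXCR5 and CX3CR1, and the sphingosine-1-phosphate (S1P) receptors S1PR1 and S1PR5. The members were chosen by gene symbol, and each symbol matched 1 of the 33994 genes listed in the expression tables. All 9 passed the filter on low values and were among the 18753 genes tested.

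Whole blood was drawn from 15 juvenile male vervet monkeys (Chlorocebus sabaeus) of Caribbean origin during relocation and quarantine, a psychosocial stressor. Each animal gave 1 library after capture but before transport and quarantine (day 0), 1 on day 3 and 1 on day 14. The labels name no unstressed control group. For the first draw, made at the capture site, animals were sedated with ketamine plus xylazine; for the draws in the facility dexmedetomidine plus midazolam was used. The place of sampling and the sedatives therefore cannot be told apart from the change from day 0, while the comparison of day 14 with day 3 holds both alike.

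Chemokine receptors are G protein-coupled receptors that turn a gradient of a small secreted protein into directed movement. CCR7 and CXCR5 draw lymphocytes into the T cell and B cell areas of lymph nodes, CXCR4 holds cells in the bone marrow and other niches where CXCL12 is made, and CCR2, CXCR3 and CX3CR1 serve entry into inflamed or peripheral tissue. The S1P receptors work in the opposite direction, because S1P is abundant in blood and scarce in tissue: S1PR1 lets lymphocytes leave lymph nodes, and S1PR5 does so for natural killer (NK) cells. In whole blood each receptor is a mixed readout of several leukocyte types, and fewer cells of a type and less RNA per cell cannot be told apart.

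Levels are FPKM (fragments on a gene, scaled by its length and by the total on genes), rescaled between libraries by trimmed mean of M values (TMM) factors. Changes were estimated on log2(scaled FPKM + 0.1) with limma, with the animal as a block, and a gene was called where its Benjamini-Hochberg adjusted p over all 18753 genes was under 0.05. The 45 libraries held 13216275 to 31469332 fragments on genes, with medians of 22963964, 22754349 and 22758493 on days 0, 3 and 14. The least covered receptor value was 27 fragments (CXCR3, day 3), and CXCR4 had at least 2848 fragments in every library.

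3 day 0 libraries stood apart. The summed level of 11 neutrophil marker genes was 28364, 37443 and 40338 scaled FPKM in animals 7, 11 and 15 on day 0, against a median of 3129 over the 15 day 0 libraries. In the same 3 libraries CCR2 was at 99.5, 134 and 152 scaled FPKM, above its range of 23.3 to 68.8 in the other 12 animals. CXCR5 was at 1.36, 1.27 and 1.56 scaled FPKM there, below the 2.24 to 9.95 of the others, and S1PR5 at 1.45, 1.52 and 1.68, below 2.23 to 7.36. Results are therefore also given for the other 12 animals.

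S1PR5 and CX3CR1 were higher and CXCR4 was lower than on day 0 on both later days, and on day 14 these 3 receptors had the lowest p-values of the 9. On day 3, 3 of the 9 receptors were called against day 0: CX3CR1 and S1PR5 rose and CXCR4 fell. On day 14, 8 of 9 were called: CXCR3, CX3CR1 and S1PR5 rose, and CCR7, CCR2, CXCR4, CXCR5 and S1PR1 fell. From day 3 to day 14, CXCR4 and CXCR5 fell, and no receptor was called higher (1 of 9 was higher at an unadjusted p under 0.05 in limma, and none was called by limma-voom).

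The share of all tested genes called was 19.4% on day 3 against day 0, 44.2% on day 14 against day 0 and 25.4% on day 14 against day 3. By direction, 10.1%, 20.7% and 12.2% of all genes were called up and 9.26%, 23.4% and 13.2% down. The counts of 3 and 2 receptors stand near these backgrounds, and 8 of 9 stands above 44.2%. With a stricter filter 8 were also called, beside 53.3% of all genes. The receptors were chosen with earlier results of these data known, so the count of 8 of 9 is a description and not a test. The median log2 fold change over the 9 receptors was 0.10, -0.22 and -0.17, beside 0.01, -0.05 and -0.05 over all tested genes. Without the animal block 2, 4 and 1 receptors were called, beside 12.4%, 36.2% and 14.5% of all genes. Without animals 7, 11 and 15 the numbers called were 0, 7 and 1, with 3, 7 and 3 receptors at an unadjusted p under 0.05. In those 12 animals 11.1%, 37.6% and 29.5% of all genes were called.

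**Figure D1:**
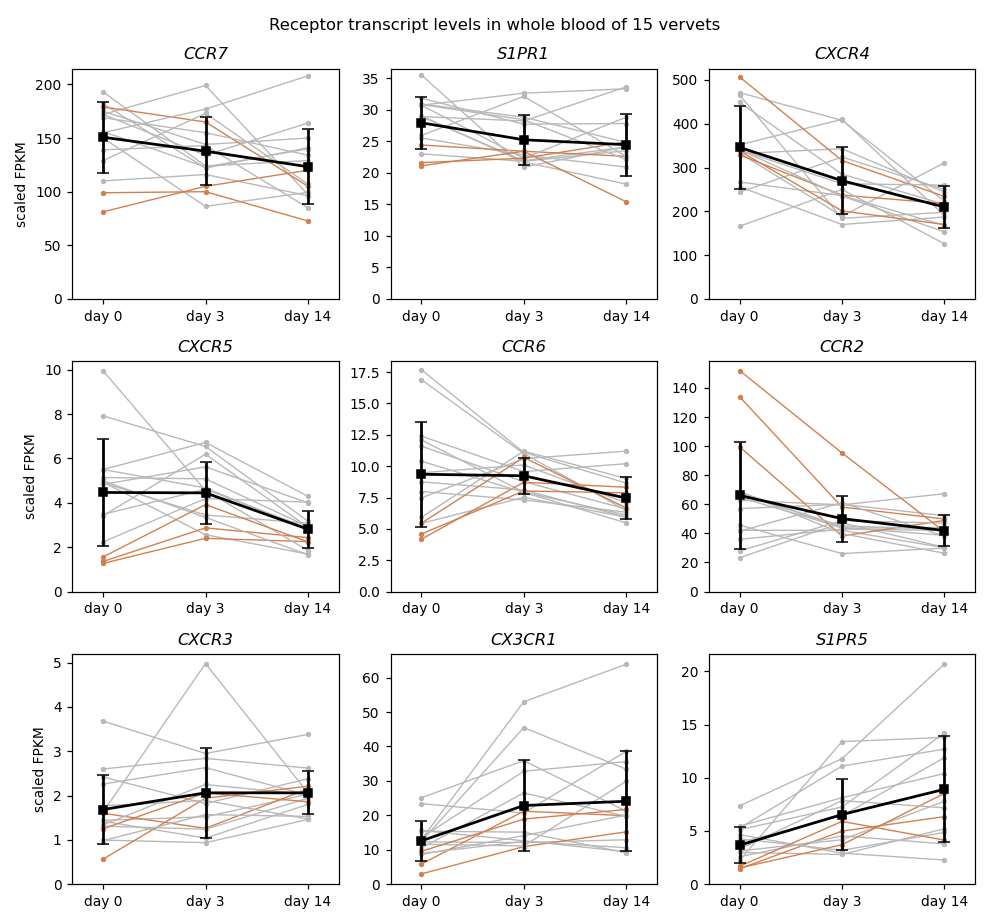
Scaled FPKM of the 9 receptors (y axis, from 0) on days 0, 3 and 14 (x axis); thin lines join the 3 samples of an animal, animals 7, 11 and 15 are in orange, and black squares with bars are means ± SD (n = 15). S1PR5 rises from a mean of 3.66 to 8.93, CXCR4 falls from 346 to 210, and the orange lines start at the top of CCR2 and the bottom of CXCR5.

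S1PR5 rose on day 14, and in the reported fit its change was larger than those of the other 8 receptors. That order did not hold with RNA integrity and the block (0.81, against 0.85 for CX3CR1) or without rescaling (0.81, against -1.10 for CXCR4). It is the S1P receptor of NK cells and patrolling monocytes. Its level ranged from 1.45 to 7.36 scaled FPKM on day 0 (median 3.30), from 2.79 to 13.4 on day 3 (median 5.90) and from 2.27 to 20.7 on day 14 (median 7.79). The ranges overlapped, but 8 of the 15 day 14 values lay above every day 0 value. Animal 2 was highest on days 0 and 14, and 9 of 15 animals rose at both steps.

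The log2 fold change of S1PR5 was 0.80 on day 3 (SE 0.19, adjusted p = 0.00361, higher in 12 of 15 animals) and 1.19 on day 14 (SE 0.19, adjusted p = 8.18e-06, higher in 14 of 15). That is a 2.28-fold rise by day 14. The further step from day 3 to day 14 was 0.39 (SE 0.19, adjusted p = 0.123). Animal 8 was the exception, with a change of -1.01 from day 0 to day 14. With those 3 animals left out the day 14 change was 1.01 (adjusted p = 0.000375) and the day 3 change was 0.61 (adjusted p = 0.0521), so the day 3 call was lost.

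CX3CR1, the fractalkine receptor of nonclassical monocytes and cytotoxic lymphocytes, was higher than on day 0 on both later days. Its change from day 3 to day 14 was not called. It spanned 2.98 to 25.1 scaled FPKM on day 0 (median 12.3), 10.9 to 53.0 on day 3 (median 18.9) and 9.11 to 63.9 on day 14 (median 20.1). The ranges overlapped, and animal 2 was the highest on both later days. On each later day 5 of 15 values lay above the whole day 0 range.

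The log2 fold change of CX3CR1 was 0.82 on day 3 (SE 0.20, adjusted p = 0.00451, higher in 10 of 15 animals) and 0.88 on day 14 (SE 0.20, adjusted p = 0.000661, higher in 12 of 15). Day 14 differed from day 3 by 0.06 with a 95% interval of -0.35 to 0.47. Animals differed widely, with day 14 changes from -0.75 in animal 9 to 2.31 in animal 11. Over the 12 animals the changes were 0.63 on day 3 (adjusted p = 0.0601, call lost) and 0.66 on day 14 (adjusted p = 0.0194). On FPKM without rescaling the day 14 change was 0.49 and was not called (adjusted p = 0.0794). Rescaling matters here because the median gene shifted by -0.36 from day 0 to day 14 on unscaled FPKM, and by -0.05 after rescaling. On unscaled values 1 receptor was called up and 6 down on day 14, against 3 up and 5 down after rescaling, with 59.1% of all genes called in place of 44.2%.

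CXCR3, the receptor for CXCL9, CXCL10 and CXCL11 on effector T and NK cells, was the least abundant member. Its level was 0.565 to 3.68 scaled FPKM on day 0 (median 1.44), 0.937 to 4.98 on day 3 (median 1.89) and 1.46 to 3.38 on day 14 (median 2.02). By day 14 the lowest value had moved up and the highest had not, and the ranges overlapped. The day 14 change of 0.37 (SE 0.14, adjusted p = 0.0372, higher in 11 of 15 animals) was the weakest of the called rises.

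That call of CXCR3 was lost in several settings. It was 0.23 in the 12 animals (adjusted p = 0.209), -0.01 without rescaling (adjusted p = 0.982) and 0.37 without the animal block (adjusted p = 0.128). Leaving out any 1 of animals 3, 5, 9, 10, 11, 13 or 15 also ended it, with adjusted p up to 0.102.

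CXCR4 was the most abundant receptor and, over all 15 animals, the one that fell most on day 14, while in the 12 animals CXCR5 fell more (0.78 against 0.65 on the log2 scale). It binds CXCL12 and is carried by most leukocytes, neutrophils among them. Its level was 166 to 507 scaled FPKM on day 0 (median 338), 170 to 410 on day 3 (median 250) and 126 to 311 on day 14 (median 216). The ranges overlapped, yet 11 of 15 animals had their lowest value on day 14 and none had its highest there.

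The log2 fold change of CXCR4 was -0.36 on day 3 (SE 0.13, adjusted p = 0.0464, lower in 11 of 15 animals), -0.70 on day 14 (SE 0.13, adjusted p = 4.72e-05, lower in 14 of 15) and -0.35 between days 3 and 14 (SE 0.13, adjusted p = 0.0438, lower in 12 of 15). By day 14 the level was 0.615 times that of day 0. The day 14 call against day 0 held under all 12 other settings and each of the 15 leave-outs. The other calls were close to the threshold. That of day 3 was lost in 11 of 15 leave-outs, all but those of animals 3, 6, 13 and 14 (adjusted p up to 0.13). That between days 3 and 14 was lost in 10, all but those of animals 2, 8, 10, 11 and 13 (adjusted p up to 0.0922). Without the animal block they had adjusted p of 0.105 and 0.0959, and in the 12 animals 0.23 and 0.0687.

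**Figure D2:**
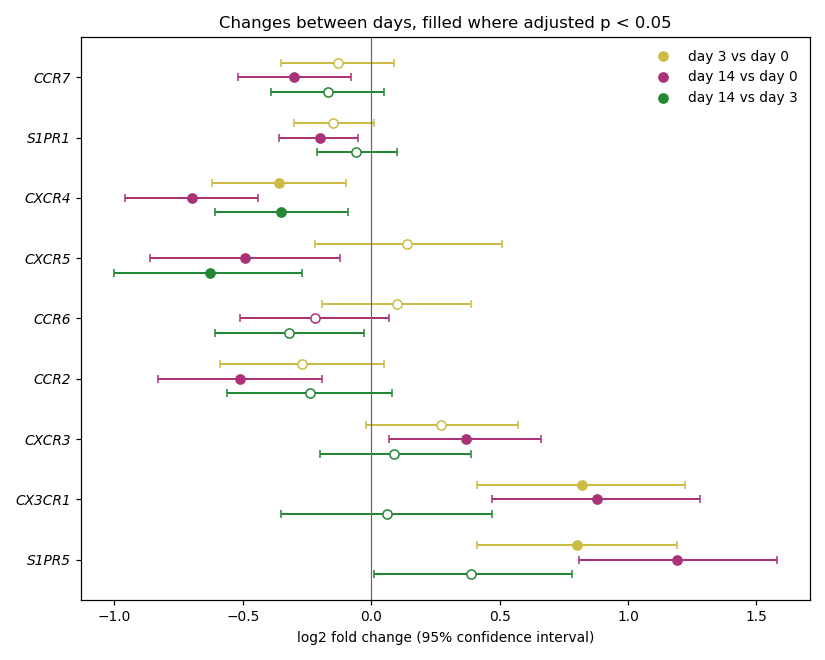
Log2 fold change (x axis) of each receptor (y axis) for the 3 comparisons, with 95% confidence intervals from limma with the animal as a block (n = 15 animals); filled points had an adjusted p under 0.05. S1PR5 and CX3CR1 lie to the right of 0 on day 3 (0.80 and 0.82) and day 14 (1.19 and 0.88), and CXCR4 lies to the left in all 3 comparisons.

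CCR7 and S1PR1, which bring naive and central memory lymphocytes into lymph nodes and let them out again, both fell slightly by day 14. CCR7 had medians of 156, 134 and 120 scaled FPKM on days 0, 3 and 14, within ranges of 81.2 to 193, 86.3 to 199 and 72.7 to 208. S1PR1 had medians of 28.9, 23.4 and 24.1 scaled FPKM, within 21.1 to 35.5, 20.9 to 32.6 and 15.4 to 33.6. For both receptors the 3 ranges overlapped almost whole.

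The day 14 log2 fold change was -0.30 for CCR7 (SE 0.11, adjusted p = 0.0225, lower in 13 of 15 animals) and -0.20 for S1PR1 (SE 0.07, adjusted p = 0.0271, lower in 11 of 15). Neither was called on day 3, with -0.13 for CCR7 (adjusted p = 0.443) and -0.15 for S1PR1 (adjusted p = 0.173). Both day 14 calls remained in the 12 animals, at -0.33 for CCR7 (adjusted p = 0.0318) and -0.22 for S1PR1 (adjusted p = 0.0321). Without the animal block the adjusted p was 0.0717 and 0.0774. The CCR7 call was also lost without animal 7 (adjusted p = 0.053), and that of S1PR1 without animal 3, 5, 12 or 14 (adjusted p up to 0.0714).

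CXCR5 and CCR6 are both carried in blood mainly by B cells, with smaller T cell subsets. CXCR5 fell after day 3. It ranged from 1.27 to 9.95 scaled FPKM on day 0 (median 4.90), from 2.40 to 6.72 on day 3 (median 4.55) and from 1.66 to 4.29 on day 14 (median 2.86). It was lower on day 14 than on day 3 in 15 of 15 animals, although the ranges overlapped, and 5 of 15 day 14 values lay below every day 3 value. The change from day 3 was -0.63 (SE 0.18, adjusted p = 0.0118) and that from day 0 was -0.49 (SE 0.18, adjusted p = 0.0276).

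The fall of CXCR5 from day 3 held in each of the 15 leave-outs and in the 12 animals (-0.70, adjusted p = 0.00601). It held without the animal block (adjusted p = 0.045), but not with RNA integrity as a covariate and no block (adjusted p = 0.0733). The fall from day 0 was -0.78 in the 12 animals (adjusted p = 0.00102). It lost its call without animal 1, 3, 5, 9, 12 or 14 (adjusted p up to 0.0913) and without the animal block (adjusted p = 0.0767).

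CCR6, the receptor for CCL20, was the only member called in none of the 3 comparisons. Its medians were 8.75, 8.76 and 6.67 scaled FPKM on days 0, 3 and 14, in ranges of 4.17 to 17.7, 7.31 to 11.2 and 5.48 to 11.2. The spread narrowed after day 0. The change was -0.22 on day 14 against day 0 (adjusted p = 0.213) and -0.32 against day 3 (adjusted p = 0.0957, lower in 13 of 15 animals). The day 14 change from day 0 was -0.45 in the 12 animals and was called (adjusted p = 0.0106).

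CCR2, the receptor for CCL2 that brings classical monocytes out of the bone marrow, had medians of 62.8, 45.1 and 42.1 scaled FPKM on days 0, 3 and 14. Its range narrowed from 23.3 to 152 on day 0, to 26.1 to 95.3 on day 3 and to 26.3 to 67.3 on day 14. All the day 3 and day 14 values lay within the day 0 range. The day 14 change was -0.51 (SE 0.16, adjusted p = 0.0091, lower in 11 of 15 animals). It was -0.27 in the 12 animals and was not called (adjusted p = 0.143), although the call held in each of the 15 leave-outs of 1 animal.

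FPKM are per length, so the levels of the receptors can be ordered within a day. By mean scaled FPKM the day 0 order was CXCR4 (346), CCR7 (151), CCR2 (66.1), S1PR1 (27.9), CX3CR1 (12.6), CCR6 (9.36), CXCR5 (4.46), S1PR5 (3.66) and CXCR3 (1.68). CXCR4, CCR7, CCR2 and S1PR1 kept the first 4 places on all 3 days. S1PR5 passed CXCR5 on day 3 and CCR6 on day 14, when it stood at 8.93 against 7.46 for CCR6 and 2.81 for CXCR5.

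Neighbours in that order were compared by a two-sided exact sign-flip permutation test of the within-animal log2 difference, with p-values adjusted over the 24 neighbouring pairs. CXCR5 and S1PR5 did not differ beyond their spread on day 0 (0.21 log2, adjusted p = 0.322) or day 3 (0.45 with S1PR5 the higher, adjusted p = 0.0639). S1PR1 and CX3CR1 did not on day 3 (0.32, adjusted p = 0.145) or day 14 (0.21, adjusted p = 0.388), nor did S1PR5 and CCR6 on day 14 (0.07, adjusted p = 0.804). The other 19 pairs differed. The median ratio of S1PR5 to S1PR1, described after its values were seen, went from 0.107 (day 0) through 0.214 (day 3) to 0.323 (day 14).

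**Figure D3:**
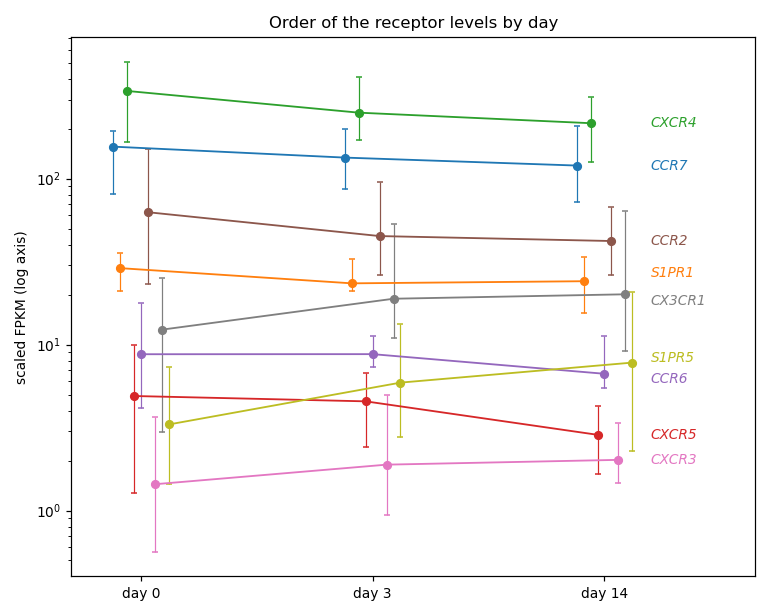
Median scaled FPKM of each receptor (log y axis) by day (x axis); bars run from the lowest to the highest of the 15 animals. CXCR4 stays on top with medians of 338, 250 and 216, while S1PR5 crosses CXCR5 by day 3 and CCR6 by day 14.

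Animals kept part of their rank through the stressor. The intraclass correlation of the log2 level within animals, after the day means were removed, was 0.48 for S1PR5, 0.44 for CXCR3 and 0.43 for CX3CR1, above 87.4%, 83.3% and 82.6% of tested genes. It was 0.39 for CCR7, 0.38 for S1PR1, 0.31 for CCR2, 0.30 for CXCR5, 0.28 for CXCR4 and 0.11 for CCR6, beside a median of 0.22 over all tested genes. S1PR5, CXCR3 and CX3CR1 were among the more animal-specific transcripts, and CCR6 was not.

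Marker genes of the carrying cell types moved with several receptors. The mean log2 level of 11 NK and cytotoxic cell markers rose by 0.54 on day 3 and 1.06 on day 14 (higher in 13 and 14 of 15 animals, exact sign-flip adjusted p = 0.00504 and 0.000806 over 33 tests). That of 7 nonclassical monocyte markers rose by 0.60 and 0.63 (adjusted p = 0.000895 for both). B cell markers, 13 genes, fell by 0.70 from day 3 to day 14 in 15 of 15 animals (adjusted p = 0.000806). From day 0 to day 14 they changed by -0.50, lower in 10 of 15 animals, which did not pass (adjusted p = 0.0547). The 9 classical monocyte markers fell by 0.39 on day 14 (adjusted p = 0.0479), a call that was lost in the 12 animals (-0.19, adjusted p = 0.278) and in 10 of 15 leave-outs. The 13 T cell markers had changes of 0.00, 0.06 and 0.06, none of which passed.

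Every list held transcripts in every library, and the NK list summed to 118 to 668 scaled FPKM on day 0, 213 to 858 on day 3 and 332 to 1574 on day 14. The B cell list summed to 91.9 to 691, 225 to 619 and 177 to 430, and the T cell list to 385 to 913, 486 to 837 and 549 to 1032. None of the defining markers CD3E, MS4A1, KLRD1, CD14 and CSF3R was at 0 in any sample. FCGR3A was not analysed here. Neutrophil markers fell by 1.47 on day 14 (adjusted p = 0.00504; -1.0 in the 12 animals, adjusted p = 0.0295) and reticulocyte and erythroid markers rose by 2.47 (adjusted p = 0.000806). No receptor was taken relative to the erythroid markers, and CXCR4 was the only one taken relative to the neutrophil markers.

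Each receptor was then taken relative to a lineage that carries it, as its log2 level minus the mean log2 level of that lineage's markers, in the same animal. Of the 9 receptors, 0 passed on day 3, 5 on day 14 against day 0 and 2 on day 14 against day 3 (two-sided exact sign-flip permutation test, adjusted over 27 tests). On day 3, 2 of 9 had an unadjusted p under 0.05.

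For 4 receptors the value relative to the markers did not pass on day 14. CXCR5 minus B cell markers changed by 0.02 ± 0.32 (SD of the within-animal change, n = 15, exact permutation adjusted p = 0.853), S1PR5 minus NK markers by 0.13 ± 0.45 (exact permutation adjusted p = 0.358), CX3CR1 minus nonclassical monocyte markers by 0.25 ± 1.04 (exact permutation adjusted p = 0.433) and CCR2 minus classical monocyte markers by -0.12 ± 0.46 (exact permutation adjusted p = 0.404). The spreads are wide for CX3CR1, so a difference of its own was not detectable rather than absent. S1PR5 minus the median in place of the mean of the NK markers was -0.38 (exact permutation adjusted p = 0.0286), which turned its direction.

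The other 5 receptors changed relative to their markers. CXCR4 fell by 0.76 ± 0.51 relative to T cell markers (SD, n = 15, exact permutation adjusted p = 0.0033, lower in 14 of 15 animals), CCR7 by 0.36 ± 0.37 (exact permutation adjusted p = 0.0209) and S1PR1 by 0.26 ± 0.33 (exact permutation adjusted p = 0.0301). CXCR3 rose by 0.31 ± 0.36 (exact permutation adjusted p = 0.033). CCR6 rose by 0.28 ± 0.36 relative to B cell markers (exact permutation adjusted p = 0.0384), and by 0.38 ± 0.35 from day 3 to day 14 (exact permutation adjusted p = 0.00824).

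Of these 6 values, those of CXCR4, CCR7 and CCR6 from day 3 passed in each of the 15 leave-outs. CXCR3 passed in 10, S1PR1 in 12 and CCR6 from day 0 in 6 of 15, with adjusted p up to 0.0659, 0.0602 and 0.0767. CXCR4 from day 3 to day 14, at -0.40 relative to T cell markers (adjusted p = 0.0384), passed in 4 of 15 (up to 0.0767). In the 12 animals CXCR4 passed on day 14 against day 0 (-0.60, exact permutation adjusted p = 0.0264) and none of the others did.

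The lineage chosen for comparison mattered for receptors that several cell types carry. CXCR4 minus neutrophil markers rose by 0.76 ± 1.31 on day 14 without passing (exact permutation adjusted p = 0.11 over 21 tests), the opposite direction to its fall against T cell markers. CXCR3 minus NK markers fell by 0.69 ± 0.58 (exact permutation adjusted p = 0.00288), where it rose against T cell markers. CCR6, which rose against B cell markers from day 3 to day 14, fell by 0.38 ± 0.29 against T cell markers (exact permutation adjusted p = 0.00288, lower in 13 of 15 animals). CX3CR1 minus NK markers fell by 0.46 ± 0.43 from day 3 to day 14 (exact permutation adjusted p = 0.00288, lower in 13 of 15 animals). S1PR1 and CCR7 rose against the falling B cell markers in the same interval, by 0.65 and 0.53 (exact permutation adjusted p = 0.00256 and 0.0182).

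**Figure D4:**
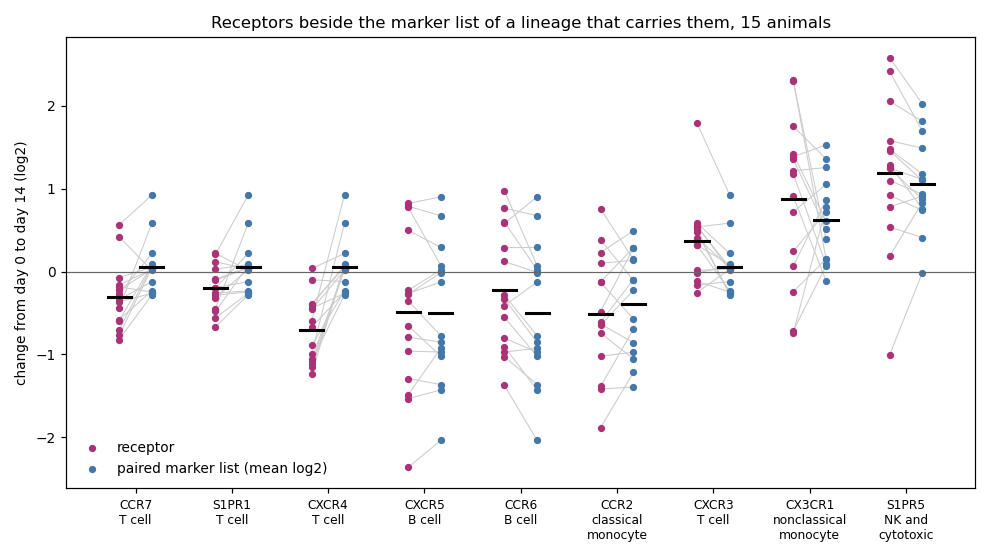
Within-animal log2 change from day 0 to day 14 (y axis) of each receptor (purple) and of the marker list of its paired lineage (blue), named under the receptor on the x axis; lines join the values of 1 animal and black bars are means over 15 animals. The means are close for S1PR5 (1.19 and 1.06) and CXCR5 (-0.49 and -0.50) and lie apart for CXCR4 (-0.70 and 0.06).

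Genes with the most similar profiles over the 45 samples were sought among 9549 genes with a mean of at least 5 CPM (fragments scaled to the library total). S1PR5 was closest to GPR153, TBX21 and COL27A1 (Pearson r of 0.93, 0.93 and 0.91), and CX3CR1 to PRF1, ARHGEF3 and GFI1 (0.89, 0.86 and 0.85). CXCR5 was closest to the B cell genes CD40 and CD22 (0.94 and 0.93), with SLC9A7 at 0.93, and CCR6 to AKAP2, CXCR5 and CD40 (0.83, 0.82 and 0.81). CCR7 was closest to DENND2D, PIK3IP1 and LEF1 (0.90, 0.85 and 0.83). PRF1 encodes perforin, TBX21 the transcription factor T-bet, and LEF1 a transcription factor of naive T cells.

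The other receptors had looser neighbours. They were TMEM91, PODXL2 and NIPA2 for CCR2 (0.82, 0.81 and 0.81), KLHL22, LRRC1 and NAB2 for S1PR1 (0.81, 0.78 and 0.77) and IL2RB, CHPF and ABI3 for CXCR3 (0.72, 0.71 and 0.70). Those of CXCR4 were EIF2AK3, EXOC2 and LBR (0.71, 0.70 and 0.70), and with the day means removed these fell to 0.54, 0.54 and 0.59. For the other 8 receptors the values moved by at most 0.04. Among the receptors themselves the closest pairs were CCR6 with CXCR5 (0.82), CX3CR1 with S1PR5 (0.81) and CCR7 with S1PR1 (0.73). The points share animals, libraries and cell mixtures, so these values are descriptions.

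Other parts of the pathways were read from 5 gene lists. Of the 13 ligands of the 9 receptors, 4 passed the filter. CXCL10, a CXCR3 ligand, rose by 0.88 on day 3 and 0.84 on day 14 (adjusted p = 0.00641 and 0.00297). Its day 3 call was lost without the animal block (adjusted p = 0.0564), and with RNA integrity and the block the day 14 change was 0.44 (adjusted p = 0.265). CXCL12, the CXCR4 ligand, was barely detected, with means of 0.0806, 0.161 and 0.0945 scaled FPKM on days 0, 3 and 14; it was called up by 0.46 on day 3 (adjusted p = 0.0376) and down by 0.41 from day 3 to day 14 (adjusted p = 0.0496). Both CXCL12 calls were lost in the 12 animals (adjusted p = 0.158 and 0.0998), without the block (0.0789 and 0.0951) and with RNA integrity (0.0968 and 0.0748). CX3CL1 and CCL19 were below the filter, and CCL2 and CCL21 were not analysed here.

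Among 22 tested receptors for other chemoattractants, 4 rose and 4 fell on day 3, 4 rose and 7 fell on day 14, and 2 rose and 2 fell from day 3 to day 14. The interleukin-8 receptors CXCR1 and CXCR2 of neutrophils fell by 1.51 and 1.14 on day 3 (adjusted p = 0.00109 and 0.00278). On that day 5 of 11 neutrophil markers were called down and 0 up, with a median log2 fold change of -1.16. The mean of that list changed by -0.81 ± 1.99 (SD) and did not pass (exact sign-flip adjusted p = 0.179). In the 12 animals CXCR1 remained called at -1.0 (adjusted p = 0.0342) and CXCR2, at -0.76, did not (adjusted p = 0.0687), beside -0.21 in the neutrophil list (adjusted p = 0.75). On day 14 CXCR1 and CXCR2 fell by 1.56 and 1.29 (adjusted p = 0.000131 and 0.000181). The complement receptor C5AR1 fell by 1.46 on day 14 in 15 of 15 animals (adjusted p = 6.24e-05). Neutrophil markers fell by 1.47 on the same day (exact sign-flip adjusted p = 0.00504). ACKR1, the chemokine-binding Duffy antigen of red cells, rose by 1.25 and 1.75 on days 3 and 14 (adjusted p = 0.000779 and 1.52e-06). CCR9 and GPR183 rose by 0.50 and 0.38 from day 3 to day 14 (adjusted p = 0.0297 and 0.04), but by 0.16 and 0.03 without rescaling (adjusted p = 0.525 and 0.897), and neither was called with RNA integrity (adjusted p = 0.0853 and 0.208).

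Of 10 tested genes of S1P metabolism, transport and the other S1P receptors, 1 rose and 3 fell on day 3, 1 rose and 4 fell on day 14, and 1 fell between days 3 and 14. MFSD2B, the S1P exporter of red cells and platelets, rose by 1.45 and 1.60 (adjusted p = 0.000429 and 1.37e-05), in 14 of 15 animals each time. Erythroid markers also rose on both days (adjusted p = 0.000806 for each), and 10 platelet markers rose by 1.60 on day 3 in 14 of 15 animals (adjusted p = 0.000895) and fell by 0.83 from day 3 to day 14 (adjusted p = 0.0102). SPNS2, the S1P exporter of endothelium, was at 1.69, 0.689 and 0.411 scaled FPKM and fell by 0.97 and 1.40 (adjusted p = 0.0227 and 0.000404). SGPL1, the S1P lyase, fell by 0.46 and 0.82, and S1PR4, a further lymphocyte and neutrophil S1P receptor, by 0.56 and 0.59 (adjusted p = 0.00676 and 0.00127). In the 12 animals the day 3 falls of SPNS2, SGPL1 and S1PR4 were not called.

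Of 29 genes of G protein signaling and receptor desensitization, 5 rose and 5 fell on day 3, 5 rose and 12 fell on day 14, and 1 rose and 5 fell from day 3. The genes with the lowest p on day 14 were ELMO1, PIK3CG and DOCK8, which link chemokine receptors to cell movement, at -0.94, -0.63 and -0.57 (adjusted p = 2.79e-07, 5.04e-05 and 8.35e-05). Neutrophil markers fell by 1.47 on that day, and the genes of this list were not taken relative to any marker list. RGS2 fell by 1.22 and ELMO1 by 0.43 on day 3, when GRK5, a receptor kinase, rose by 0.42. The day 3 call of ELMO1 was lost in the 12 animals (-0.28, adjusted p = 0.081) and that of GRK5 without rescaling (adjusted p = 0.113). GNAI2, the G protein subunit through which chemokine receptors signal, had changes of 0.09 and -0.08, and ARRB2, an arrestin, of 0.00 and 0.12, and neither was called. ADRBK1 (GRK2) fell by 0.27 on day 14 (adjusted p = 0.0418), but by 0.15 in the 12 animals (adjusted p = 0.216), and was not called with RNA integrity (adjusted p = 0.164). ADRBK2, DOCK2 and ELMO1 fell by 0.53, 0.36 and 0.51 from day 3 to day 14.

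Of 19 regulators of homing and egress and their adhesion partners, 6 rose and 5 fell on day 3, 4 rose and 7 fell on day 14, and 1 rose and 2 fell from day 3. KLF2, a transcription factor known to drive S1PR1 in T cells, fell by 0.64 and 0.82 in 15 of 15 animals on both days (adjusted p = 0.000253 and 7.08e-07). FOXO1, which acts with it and on CCR7, fell by 0.24 and 0.56 (adjusted p = 0.0179 and 7.22e-07), but its day 3 call was lost without the block (adjusted p = 0.115), with RNA integrity (0.0547) and without rescaling (0.219). BCL6 fell by 1.09 on day 3 (adjusted p = 0.0032, and 0.0803 in the 12 animals). On day 14 it fell by 1.62 in 14 of 15 animals (adjusted p = 6.82e-06, and 0.000191 in the 12 animals).

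TBX21, which encodes T-bet and drives S1PR5 and CXCR3 in lymphocytes, rose by 0.76 on day 3 in 15 of 15 animals (adjusted p = 0.000309) and by 0.99 on day 14 in 14 of 15 (adjusted p = 7.72e-07). CD69, which takes S1PR1 off the cell surface, had changes of -0.15 and 0.32 from day 0 that were not called. It rose by 0.47 from day 3 to day 14 (adjusted p = 0.0265), but by 0.12 without rescaling (adjusted p = 0.57). That rise was also not called without the block (adjusted p = 0.0581) or with RNA integrity (adjusted p = 0.137). TCF7, a factor of naive and memory T cells, fell by 0.57 over the same interval (adjusted p = 0.017). Over the 5 lists 35 of 84 tested genes were called on day 3 (41.7%), 45 on day 14 (53.6%) and 15 from day 3 to day 14 (17.9%), beside 19.4%, 44.2% and 25.4% of all genes. In the 12 animals the numbers were 17, 41 and 19, beside 11.1%, 37.6% and 29.5% of all genes. Of the calls over all 15 animals 7, 23 and 4 also held in each of 4 settings (12 animals, no animal block, RNA integrity with the block, no rescaling). Those of KLF2, TBX21, MFSD2B and ACKR1 on both days were among them, as were FOXO1, SPNS2, SGPL1, S1PR4 and ELMO1 on day 14, and those of CD69 and TCF7 were not.

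RNA integrity, as listed by the study, was higher on day 14 than on day 0 in most animals and lower in none. It therefore cannot be fully told apart from the change from day 0. Where RNA integrity was added as a covariate beside the animal block, 15.1%, 23.2% and 10.8% of all genes were called in the 3 comparisons, and 2, 4 and 1 receptors. S1PR5, CX3CR1, CXCR4 and S1PR1 remained called on day 14 (0.81, 0.85, -0.76 and -0.29), S1PR5 and CX3CR1 on day 3 (0.62 and 0.81), and CXCR5 from day 3 to day 14 (-0.60, adjusted p = 0.0474). CCR7, CCR2, CXCR3 and CXCR5 on day 14 had changes of -0.31, -0.49, 0.42 and -0.43 and were not called (adjusted p = 0.111, 0.0845, 0.104 and 0.197), nor was CXCR4 on day 3 or between days 3 and 14 (0.0555 and 0.0719). The covariate without the animal block, tried after the data were seen, left CXCR4 on day 14 as the single receptor called in the 3 comparisons, with 3, 4 and 1 receptors at an unadjusted p under 0.05 and 7.9%, 21.8% and 7.19% of all genes called.

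**Figure D5:**
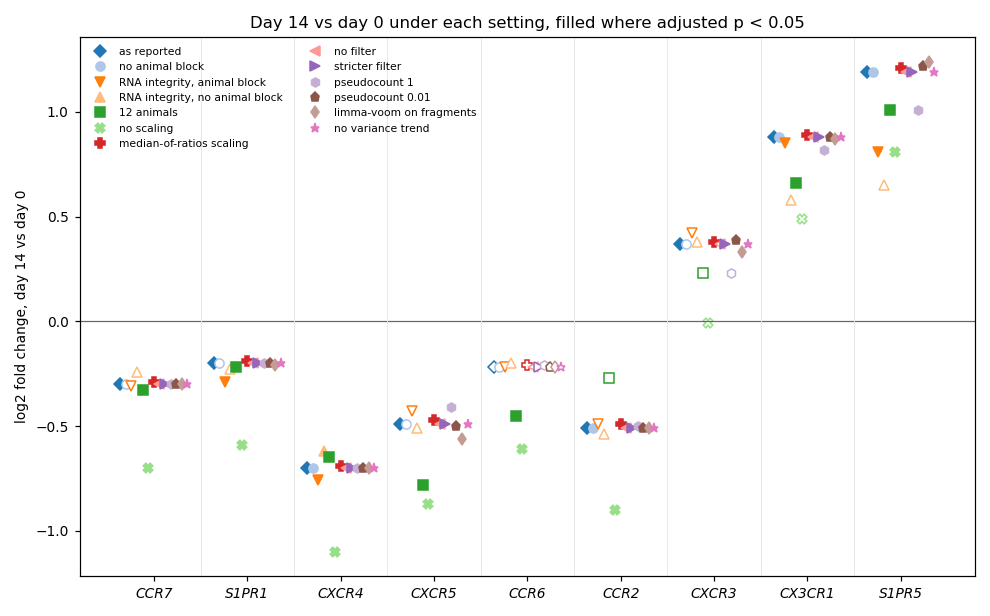
Log2 fold change from day 0 to day 14 (y axis) of each receptor (x axis) under the reported fit and 12 other settings, filled where the adjusted p was under 0.05 (n = 15 animals, or 12 where stated). CXCR4 is filled under every setting and spans -1.10 to -0.62, S1PR5 spans 0.65 to 1.24, and CXCR3 reaches -0.01 without rescaling.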

How the data were processed

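Whole-blood RNA (PAXgene tubes) from 15 animals at 3 time points had been sequenced as 120-base stranded libraries after ribosomal and globin RNA removal. The deposited unit is FPKM per gene, made by the authors from fragment counts. The submitters' processing notes name bcl2fastq 2.17, STAR and HTSeq, and how reads shared between related genes were counted is not given in the sources used here. The deposited tables hold no counts, but 100% of FPKM values were whole multiples of 1 fragment within 0.02 fragments, which gave the depth, the CPM filter (over 0.5 CPM in at least 3 samples, 18753 genes) and TMM factors (0.569 to 1.496). Depth sets counting error only.

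Groups follow the labels' days; the sample labels give day 14 for the last time point, which is used throughout, while the series' design text gives day 15. limma 3.58.1 (R 4.3.3) was run with a variance trend on log2(scaled FPKM + 0.1) over 45 samples with the animal as a block, and was tested on simulated data. Relative values, marker lists and neighbouring levels were tested in Python 3.11.15 by exact sign flips over 15 animals (32768 patterns). Deviations from the day means correlated at 0.328 on average (-0.042 to 0.583) between samples of the same animal and at -0.023 between different animals, and the labels name the animal. No 2 of the 45 files were identical, and the lowest chi-square per gene over all 990 pairs of libraries was 31.3. The samples of an animal are repeated draws, and no sequencing batch is named.

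The receptors, pathway and marker lists were chosen with earlier results of these data known. Named were all 9 receptors, their 3 most correlated genes each, set pathway partners and up to 3 called genes with the lowest p in each list and comparison. The 12-animal runs, the RNA integrity covariate without the block and the leave-outs of pathway counts were added after the data were seen; RNA integrity numbers were read from the study's sample listing. No genome or sequences of the build used by the files were used here, so no positions are given. Some genes of the lists are not reported here by name.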

Additional observations from a re-analysis of the deposited data

How the results depend on the processing

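Over 12 other settings the 27 receptor fold changes gave 324 values, of which 276 kept their direction and side of the threshold, 36 kept their direction but lost a call, 6 gained one and 6 turned sign, of which CXCR3 on day 14 without rescaling also lost its call; over the leave-outs of 1 animal 364 of 405 did so and 39 lost a call. The receptors called numbered 2 to 3 on day 3, 5 to 8 on day 14 and 1 to 2 from day 3 to day 14 over the leave-outs. Without the animal block, which the labels' animal names justify, 4 were called on day 14 and 1 from day 3 to day 14. RNA integrity with the block gave 4 and 1, and without the block 0 on day 3, 1 on day 14 and 0 from day 3 to day 14. The 12 animals gave 0 on day 3 and 1 from day 3 to day 14. From day 3 to day 14 there were 6 without rescaling, where 51.1% of all genes were called and the median gene shifted by -0.35, and 1 with median-of-ratios factors or without a filter. Except where the construction shows it (fewer animals, more genes tested without a filter), the cause was not tested.

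Of the 84 tested pathway genes, 20 were called on day 3 without the block and 17 in the 12 animals, beside 12.4% and 11.1% of all genes. On day 14, 29 were called with RNA integrity and the block, beside 23.2% of all genes. From day 3 to day 14 they numbered 7 without the block, 45 without rescaling and 4 with RNA integrity and the block. The shares of all genes were 14.5%, 51.1% and 10.8% in those settings. Over the leave-outs the pathway genes called numbered 25 to 38, 40 to 45 and 7 to 20. The shares of all genes ran from 14.7% to 19.7%, from 40.3% to 44.7% and from 16.1% to 28.4%. Receptors that changed relative to their markers numbered 5 from day 3 to day 14 with marker medians, and 1 on day 14 and 0 from day 3 to day 14 in the 12 animals. Over the leave-outs they numbered 0 to 1, 2 to 5 and 1 to 3.

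Fold changes that turned sign were CXCR3 on day 14 (-0.01) and from day 3 to day 14 (-0.24) and CX3CR1 from day 3 to day 14 (-0.29) without rescaling, CX3CR1 from day 3 to day 14 (-0.10) with RNA integrity and no block, and CCR6 (-0.11) and CXCR5 (-0.08) on day 3 in the 12 animals. None of these passed. Over the leave-outs CX3CR1 from day 3 to day 14 ran from -0.04 to 0.12.

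Relative to markers, with medians over markers CXCR3 was -0.22 from day 3 to day 14, CXCR5 -0.03 on day 14, CCR2 0.02 on day 3 and 0.04 on day 14, and S1PR5 -0.03 on day 3 and -0.38 on day 14, the last passing. With a pseudocount of 1 CXCR3 was -0.01 from day 3 to day 14. Over the 12 animals CXCR3 was -0.02 from day 3 to day 14, CXCR5 -0.07 on day 14 and CX3CR1 -0.01 on day 3. Against neutrophil markers CXCR4 was 0.45, 0.76 and 0.31 over the 3 comparisons. Against NK markers CX3CR1 was -0.18 on day 14 and -0.46 from day 3 to day 14, and CXCR3 was -0.27, -0.69 and -0.42. Against T cell markers CCR6 was 0.09, -0.28 and -0.38. Against B cell markers S1PR1 was 0.30 on day 14 and 0.65 from day 3 to day 14, CCR7 0.20 and 0.53, and CXCR4 0.36 from day 3 to day 14. Over the leave-outs CX3CR1 from day 3 to day 14 ran from -0.06 to 0.09, CXCR3 from -0.02 to 0.14, and CXCR5 on day 14 from -0.03 to 0.06.

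Marker lists that turned sign did not pass. With marker medians the T cell list was -0.12 on day 3, the nonclassical monocyte list -0.18 from day 3 to day 14, and the plasmacytoid dendritic cell list -0.11 on day 14 and -0.19 from day 3 to day 14. Without rescaling the T cell list was -0.04, -0.33 and -0.30, and the nonclassical monocyte and plasmacytoid dendritic cell lists were each -0.30 from day 3 to day 14. In the 12 animals the T cell list was -0.12 on day 3 and -0.05 on day 14, and the classical monocyte list 0.21 on day 3. Over the leave-outs the T cell list ran from -0.05 to 0.05 on day 3 and up to 0.08 on day 14, the classical monocyte list from -0.06 to 0.08 on day 3, the basophil and eosinophil list from -0.17 to 0.13 and the nonclassical monocyte list up to 0.06 from day 3 to day 14. CXCR3 was the least covered receptor, at 27 to 299 fragments.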
